A study of Danio rerio with 9 samples.

Results

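Expression of 10 genes of glia and myelin was measured in zebrafish larvae with and without loss of *cep290*, a gene for a protein of the ciliary transition zone. The genes were chosen by name: the myelin genes *mbpa*, *mpz*, *plp1a* and *plp1b*, the transcription factor genes *olig2* and *sox10*, and the radial glia and astroglia genes *gfap*, *fabp7a*, *glula* and *slc1a3a*. They are 10 of the 33737 genes in the table, and all 10 passed the filter on low values that left 21982 genes for testing. RNA came from whole TuAB strain embryos at 72 h post-fertilization (hpf), in 3 pools of 30 embryos for each of 3 groups. *MZcep290-/-* mutants were maternal-zygotic for a 10 bp deletion in exon 16 made by genome editing. *cep290ex25* morphants had been injected with a morpholino against the splice donor site of exon 25. Wild-type (WT) embryos were the common control, and the labels do not say whether they were injected. Each library is a pool of whole embryos, so fewer cells of a type and less RNA per cell cannot be told apart.

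Myelin is the membrane that glia wrap around axons, made by oligodendrocytes in the brain and spinal cord and by Schwann cells in peripheral nerves. Compact myelin is held together by a few abundant proteins, among them myelin basic protein, proteolipid protein and myelin protein zero. Oligodendrocyte precursors arise from *olig2*-positive progenitors, and *sox10* is needed in both oligodendrocytes and the neural crest lineage that gives Schwann cells. In the zebrafish brain, radial glia carry many tasks of mammalian astrocytes, such as the uptake of glutamate and its conversion to glutamine. Myelination in zebrafish has begun by the age sampled here, so the myelin genes were read near their onset.

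Values are RPKM, reads scaled by gene length and by library size, so levels can be compared between genes. Reads on genes numbered 18662115 to 21299112 per library in mutants, 9050375 to 16150393 in morphants and 5652757 to 7674248 in WT. Log2 values of WT replicates correlated across genes at r = 0.744 to 0.796, those of mutant replicates at 0.965 to 0.968 and those of morphant replicates at 0.920 to 0.939. The 50 most abundant genes took 21.3 to 21.95% of reads in mutants, 27.8 to 34.0% in morphants and 40.8 to 41.9% in WT. All 17 genes of a list of other embryo tissues (among them muscle, skin, blood, lens, pancreas and liver, with the neuron gene *elavl3*) were above 0 in every library. *cep290* itself, which encodes the targeted protein, was at 1.32, 1.14 and 1.29 RPKM in mutants, 5.45, 6.15 and 3.36 RPKM in morphants and 2.60, 1.62 and 1.72 RPKM in WT. These values cover the whole gene and check neither the deletion nor the splice block.

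Differences were tested on log2(RPKM + 0.1) with limma over all genes, and the fold changes below are on that scale, which understates changes of low genes. A gene was called when its adjusted p was under 0.05 and its change exceeded 2-fold. In mutants against WT, 1 gene rose (*plp1a*) and 2 fell (*mbpa* and *mpz*), where 10.4% of all genes were called higher and 12.1% lower. In morphants against WT, 1 rose (*plp1a*) and 3 fell (*mbpa*, *mpz* and *plp1b*), where 7.45% of all genes were called higher and 14.9% lower. The median log2 fold change of the 10 genes was 0.10 in mutants and -0.16 in morphants, against -0.02 and -0.05 over all genes tested. At any fold, 6 of the 10 passed an adjusted p of 0.05 in mutants and 5 in morphants, where 36% and 35.2% of all genes did. Mutant and WT libraries did not overlap for 9 of the 10 genes, with a background of 52.6%, and morphant and WT libraries for 8 of the 10, with a background of 42.3%. Both comparisons share the WT libraries. Single genes were also compared by a two-sided exact permutation test, which with 3 libraries against 3 cannot give p below 0.10.

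**Figure D1:**
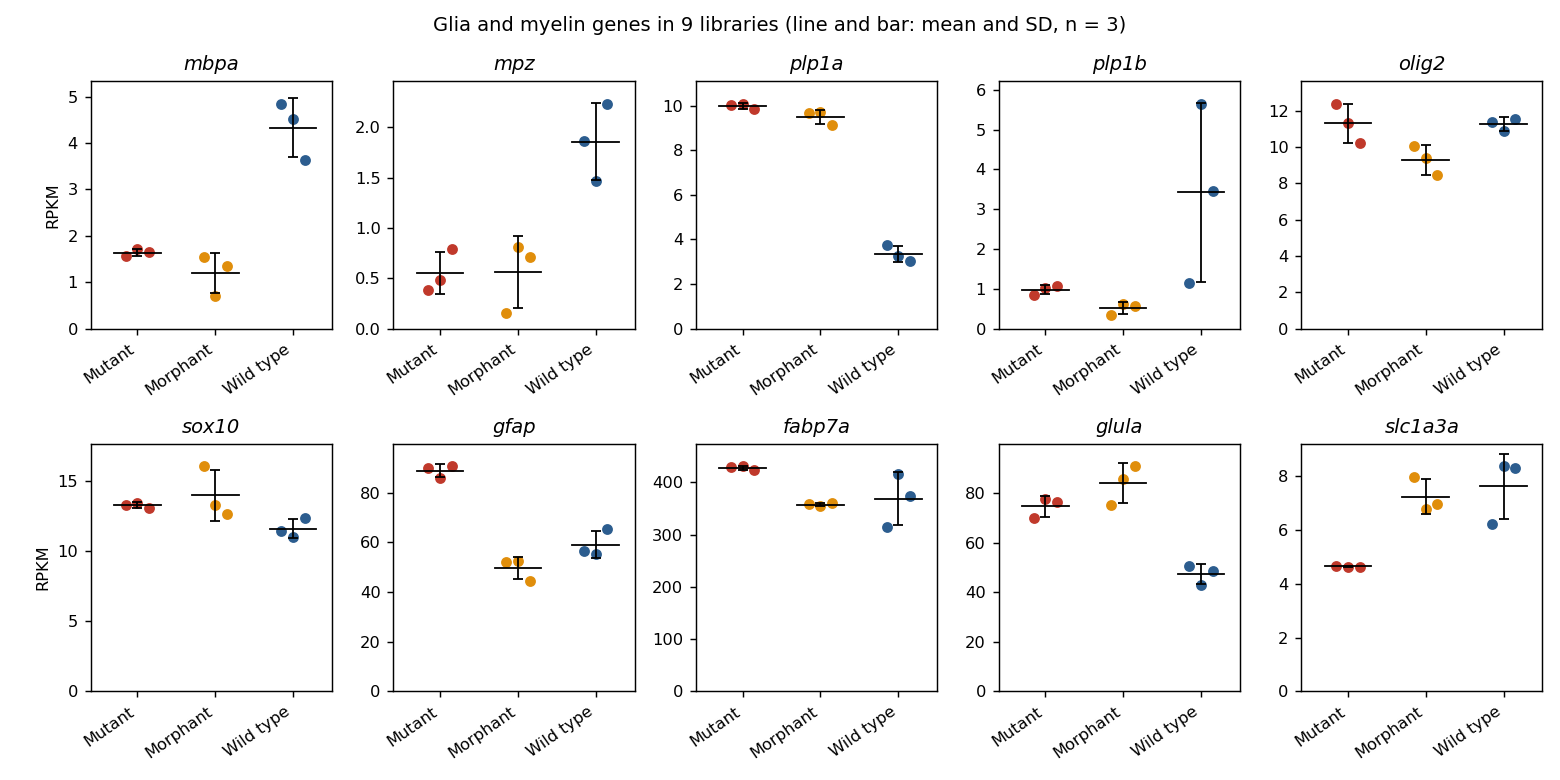
RPKM of each of the 10 genes in the 3 mutant, 3 morphant and 3 WT libraries, on linear axes from 0, 1 panel per gene. Points are libraries, and line and bar are the mean and SD; *plp1a* stood above WT in all 6 mutant and morphant libraries, and *mbpa* and *mpz* stood below WT in all 6.

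The clearest difference among the compact myelin genes lay between *plp1a* and *mbpa*, which moved in opposite directions in both mutants and morphants. *mbpa* (ENSDARG00000036186) encodes myelin basic protein, which binds the cytoplasmic faces of the myelin membrane together. It had 1.56, 1.71 and 1.64 RPKM in mutants, 1.54, 0.706 and 1.35 RPKM in morphants and 4.85, 4.52 and 3.63 RPKM in WT. Every mutant and morphant library was thus below every WT library. *mbpa* fell 2.53-fold in mutants (log2 fold change -1.34, SE 0.32, adjusted p = 0.0103) and 3.55-fold in morphants (log2 fold change -1.83, SE 0.32, adjusted p = 0.00258). These levels rest on 165 to 173 reads in mutants, 43 to 66 in morphants and 81 to 93 in the shallower WT libraries. Among genes of like mean level, 2 to 4 RPKM, 5.71% were called lower in mutants and 8.89% in morphants.

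*plp1a* (ENSDARG00000057770) encodes a proteolipid protein, a membrane-spanning component of central myelin. It was measured at 10.0, 10.1 and 9.84 RPKM in mutants, 9.66, 9.71 and 9.15 RPKM in morphants and 3.74, 3.27 and 3.03 RPKM in WT. The 6 mutant and morphant libraries lay close together and far above the WT libraries. *plp1a* rose 2.94-fold in mutants (log2 fold change 1.55, SE 0.13, adjusted p = 5.01e-05) and 2.80-fold in morphants (log2 fold change 1.48, SE 0.13, adjusted p = 0.000104). At 79 to 90 reads in WT, against 1221 to 1393 in mutants and 367 to 829 in morphants, it was the most precisely measured change of the 4 myelin genes. Among genes of 4 to 8 RPKM, 17.5% were called higher in mutants and 12.1% in morphants.

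The second copy was called in the other direction, in morphants. *plp1b* (ENSDARG00000011929) encodes a closely related proteolipid protein and had 0.850, 1.01 and 1.08 RPKM in mutants, 0.344, 0.624 and 0.577 RPKM in morphants and 1.15, 5.65 and 3.47 RPKM in WT. The WT libraries spread widely, and WT replicate 1 lay just above the highest mutant library. *plp1b* fell 4.91-fold in morphants (log2 fold change -2.30, SE 0.54, adjusted p = 0.0106). That call was lost with quantile (-1.55, adjusted p = 0.144) and cyclic loess normalization (-1.39, adjusted p = 0.121), and the value was -2.91 without WT replicate 1 and -1.81 without WT replicate 2. In mutants its log2 fold change was -1.45 (SE 0.54, adjusted p = 0.0639), which missed the threshold. The mutant value was -2.07 without WT replicate 1 (adjusted p = 0.00433) and -0.97, under 2-fold, without WT replicate 2 (adjusted p = 0.177). Only 8 to 23 reads lay behind each morphant value and 12 to 59 behind each WT value, and 13.6% of genes of 1 to 2 RPKM were called lower in mutants and 25.9% in morphants. How reads matching several genes were counted is not given, and whether *plp1a* and *plp1b* share such reads was not tested. The division of reads between *plp1a* and *plp1b* is therefore uncertain. The copies differ in length, so their summed RPKM also depends on that division. The sum was 10.9 to 11.1 RPKM in mutants, 9.72 to 10.3 RPKM in morphants and 4.89 to 8.92 RPKM in WT (exact permutation p = 0.10 for each group against WT, the smallest possible).

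*mpz* (ENSDARG00000038609), the gene for the adhesion protein myelin protein zero, was the lowest of the 10 genes in mutants and WT. Its levels were 0.382, 0.484 and 0.792 RPKM in mutants, 0.152, 0.814 and 0.713 RPKM in morphants and 1.87, 1.47 and 2.24 RPKM in WT. The highest mutant or morphant library was below the lowest WT library. *mpz* fell 3.06-fold in mutants (log2 fold change -1.61, SE 0.56, adjusted p = 0.0488) and 3.37-fold in morphants (log2 fold change -1.75, SE 0.56, adjusted p = 0.0363). Both calls were close to the threshold, and their size depended on the normalization. With cyclic loess the log2 fold change was -0.71 in mutants (adjusted p = 0.380) and -0.16 in morphants (adjusted p = 0.860), and with quantile normalization it was -1.38 in mutants (adjusted p = 0.0835) and -0.79 in morphants (adjusted p = 0.331). limma-voom on the recovered reads gave -1.82 in mutants (adjusted p = 0.00247) and -1.92 in morphants (adjusted p = 0.0123). In mutants the call was lost without any 1 of the 6 mutant and WT libraries (adjusted p = 0.0604 to 0.154), and also without morphant replicate 2 (0.0510) or 3 (0.0535), which share the estimate of spread. In morphants it was lost without WT replicate 1 (0.0637) or 3 (0.0783), mutant replicate 1 (0.0546), 2 (0.0595) or 3 (0.0534), or morphant replicate 1 (0.0868, at a log2 fold change of -1.16). Of genes under 1 RPKM, 29.8% were called lower in mutants and 43.3% in morphants, so a lower call was common at this level, and its relation to depth was not tested.

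**Figure D2:**
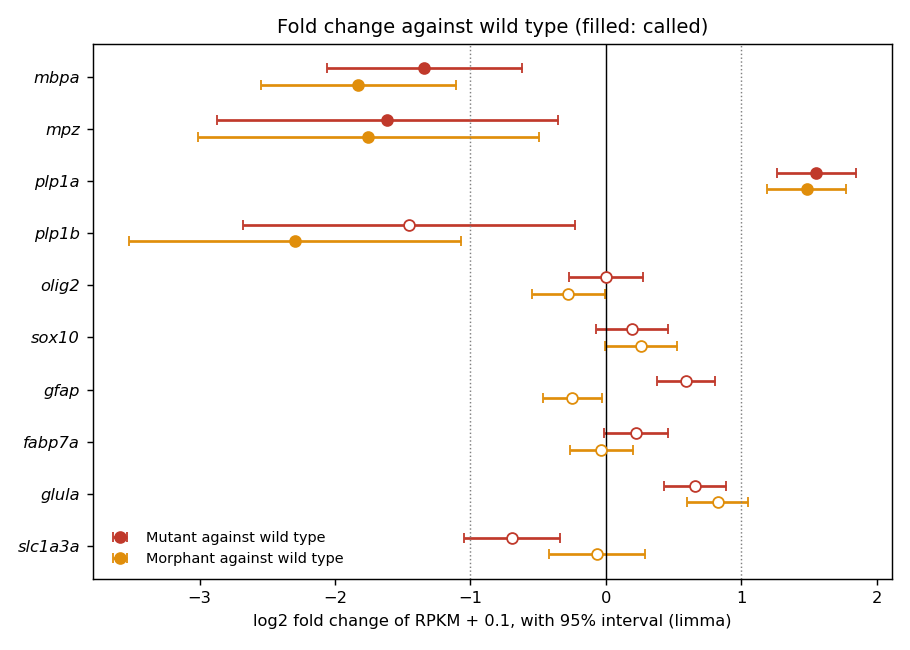
Log2 fold change of RPKM + 0.1 of the 10 genes in mutants and morphants against WT, with 95% intervals from limma. Filled points passed both thresholds and dotted lines mark 2-fold; the myelin genes *mbpa*, *mpz* and *plp1b* lie on the left and *plp1a* on the right, while *olig2*, *sox10* and *fabp7a* lie near 0.

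The ratio of 2 genes within a library does not depend on how that library was scaled, and the pairs given here were chosen after their values were seen. *plp1a* over *mbpa* was 5.89 to 6.41 in mutants and 6.27 to 13.8 in morphants, against 0.723 to 0.836 in WT. *mbpa* was the more abundant of this pair in every WT library, and *plp1a* in every mutant and morphant library. *plp1a* over *plp1b* was 9.11 to 11.8 in mutants and 15.6 to 28.1 in morphants, against 0.578 to 3.24 in WT. *plp1b* was above *plp1a* in WT replicates 2 and 3 and below it in replicate 1. *mbpa* over *mpz* overlapped between all groups, at 2.07 to 4.09 in mutants, 0.868 to 10.1 in morphants and 1.62 to 3.09 in WT.

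**Figure D3:**
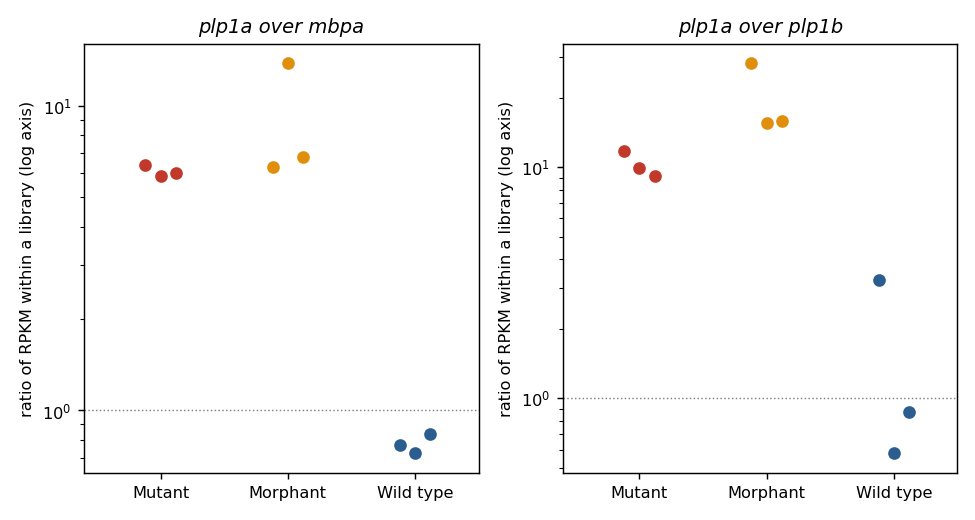
Ratio of *plp1a* to *mbpa* (left) and of *plp1a* to *plp1b* (right) within each of the 3 mutant, 3 morphant and 3 WT libraries, on a log axis. Points are libraries and the dotted line marks equal levels; mutant and morphant libraries lie above every WT library in both panels.

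The transcription factor genes of the myelinating lineages changed little in the reported fit. *olig2* (ENSDARG00000040946), which specifies motor neuron and oligodendrocyte progenitors, had 12.4, 11.3 and 10.2 RPKM in mutants, 10.1, 9.39 and 8.45 RPKM in morphants and 11.4, 10.9 and 11.6 RPKM in WT. Mutant libraries lay around the WT libraries, whereas the 3 morphant libraries lay below them. The log2 fold change was 0.00 in mutants (95% interval -0.27 to 0.27, adjusted p = 0.998) and -0.28 in morphants (SE 0.12, adjusted p = 0.104).

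*sox10* (ENSDARG00000077467) had 13.3, 13.5 and 13.1 RPKM in mutants, 16.1, 13.3 and 12.7 RPKM in morphants and 11.4, 11.0 and 12.4 RPKM in WT. All mutant and morphant libraries lay above the WT libraries, by small margins. Its log2 fold change was 0.19 in mutants (95% interval -0.07 to 0.46, adjusted p = 0.231) and 0.26 in morphants (SE 0.12, adjusted p = 0.112). For neither factor did the 95% interval reach a 2-fold change in either group. These values depended on the scaling. Across the 23 alternatives given below, the log2 fold change of *olig2* ran from -0.58 to 0.73 in mutants and from -0.66 to 0.02 in morphants. That of *sox10* ran from -0.39 to 0.92 in mutants and from -0.12 to 0.56 in morphants. In each group, each factor had an adjusted p under 0.05 in 2 of the 23, and neither was called. With *olig2* level or lower and *sox10* level or higher, the ratio of *olig2* to *sox10* was 0.782 to 0.930 in mutants and 0.628 to 0.708 in morphants, against 0.935 to 0.994 in WT.

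The radial glia and astroglia genes were more abundant than the myelin genes, apart from *slc1a3a*, and none passed the 2-fold threshold in either group. That held for the reported fit, and some of these genes were called with other normalizations, as given under the dependence on processing. *gfap* (ENSDARG00000025301), an intermediate filament gene that marks radial glia, stood at 90.1, 86.0 and 90.7 RPKM in mutants, 52.2, 52.5 and 44.5 RPKM in morphants and 56.7, 55.3 and 65.3 RPKM in WT. Mutant libraries were above and morphant libraries below all WT libraries. The change was 1.51-fold in mutants (log2 fold change 0.59, SE 0.10, adjusted p = 0.00157), and the log2 fold change in morphants was -0.25 (SE 0.10, adjusted p = 0.0720).

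*glula* (ENSDARG00000069054) encodes glutamine synthetase, which glia use to convert glutamate to glutamine. Its levels were 69.7, 77.7 and 76.3 RPKM in mutants, 75.0, 85.8 and 90.8 RPKM in morphants and 50.6, 42.7 and 48.5 RPKM in WT. Both mutant and morphant libraries were above all WT libraries and overlapped each other. *glula* was 1.58-fold higher in mutants (log2 fold change 0.66, SE 0.10, adjusted p = 0.00114) and 1.77-fold higher in morphants (log2 fold change 0.82, SE 0.10, adjusted p = 0.000547).

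*slc1a3a* (ENSDARG00000026218) encodes a glutamate transporter of the EAAT1 type, the uptake step that precedes glutamine synthesis. It had 4.68, 4.62 and 4.63 RPKM in mutants, 7.96, 6.76 and 6.98 RPKM in morphants and 6.23, 8.36 and 8.29 RPKM in WT. The 3 mutant libraries lay below all others, and morphant and WT libraries overlapped. In mutants *slc1a3a* was 1.62-fold lower (log2 fold change -0.69, SE 0.16, adjusted p = 0.00848), and in morphants its log2 fold change was -0.07 (95% interval -0.42 to 0.29, adjusted p = 0.771). The ratio of *glula* to *slc1a3a* was 14.9 to 16.8 in mutants, 9.42 to 13.0 in morphants and 5.11 to 8.12 in WT, with no overlap between groups. *slc1a3a* was less abundant than its paralogue *slc1a3b*, whose levels are given below.

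*fabp7a* (ENSDARG00000007697), which encodes a brain-type fatty acid binding protein of radial glia, was the most abundant of the 10 genes in every group. It had 429, 431 and 423 RPKM in mutants, 358, 355 and 360 RPKM in morphants and 315, 416 and 375 RPKM in WT. The mutant libraries lay above the WT range and the morphant libraries within it. Its log2 fold change was 0.22 in mutants (95% interval -0.01 to 0.46, adjusted p = 0.123) and -0.04 in morphants (95% interval -0.27 to 0.20, adjusted p = 0.813). The mutant value depended on the normalization. *fabp7a* was called higher in mutants with quantile (1.03, adjusted p = 2.9e-05) and cyclic loess normalization (1.08, adjusted p = 3.3e-05). *fabp7a*, *gfap* and *glula* are among the abundant genes, and of genes at 128 RPKM or more, where *fabp7a* belongs, 51.0% were called lower in mutants and 8.69% in morphants.

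Mutants and morphants were also compared directly. None of the 10 genes was called in either direction, where 3.48% of all genes were called higher and 2.4% lower in mutants, and 4 of the 10 had an unadjusted p under 0.05, as did 28.5% of all genes. limma-voom on the recovered reads likewise called 0. At an adjusted p under 0.05 without regard to fold there were 2 of the 10, where 13.6% of all genes passed. *gfap* was 1.79-fold higher in mutants (log2 fold change 0.84, SE 0.10, adjusted p = 0.00108), and *slc1a3a* was 1.54-fold lower in mutants (log2 fold change -0.63, SE 0.16, adjusted p = 0.0298). The *slc1a3a* difference missed an adjusted p of 0.05 without mutant replicate 1 (0.105), 2 (0.109) or 3 (0.106) or morphant replicate 1 (0.103) or 3 (0.0700). For *plp1a* the log2 difference was 0.07 (95% interval -0.22 to 0.36, adjusted p = 0.771), and the mutant libraries still lay just above all morphant libraries. For *mbpa* it was 0.49 (95% interval -0.23 to 1.204), for *mpz* 0.14 (95% interval -1.12 to 1.40) and for *plp1b* 0.84 (95% interval -0.38 to 2.07), intervals wide enough to hold a 2-fold difference. The spread behind these intervals is shared by all 9 libraries, WT included, so they do not measure mutant and morphant spread alone. With only the mutant and morphant libraries fitted, 1610 of all genes were called higher and 674 lower in mutants, against 766 and 528 here. None of the 10 genes was called in that fit either. Mutant and morphant libraries did not overlap for 7 of the 10 genes, with a background of 47.3%, and the median log2 difference of the 10 was 0.20, against 0.14 over all genes tested.

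Ordered by mean level, the genes fell into the same upper block in each group: *fabp7a* first, then *gfap* and *glula*, then *sox10*. The mean *fabp7a* level was 428 ± 4.26 RPKM in mutants, 358 ± 2.83 RPKM in morphants and 369 ± 50.8 RPKM in WT (SD, n = 3 each). *gfap* was above *glula* in mutants and WT and below it in morphants, with no overlap of their libraries in any group. The lower part of the order differed. *plp1a* stood 6th in mutants and 5th in morphants, at a mean of 9.99 ± 0.131 and 9.51 ± 0.314 RPKM, and 9th in WT at 3.35 ± 0.359 RPKM (SD, n = 3 each). In WT, libraries overlapped for the neighbours *sox10* and *olig2*, *mbpa* and *plp1b*, and *plp1b* and *plp1a*. Within each WT library *sox10* was above *olig2*, whereas the order of the other pairs changed between libraries. In morphants, libraries overlapped for *plp1a* and *olig2*, *mbpa* and *mpz*, and *mpz* and *plp1b*, and the order of each pair changed between libraries. In mutants no neighbours overlapped. Replicates of *plp1b* varied most in WT, with a coefficient of variation of 65.7%, and those of *mpz* most in mutants (38.5%) and morphants (63.7%).

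The second copies of the genes did not all follow the first. *mbpb*, the other myelin basic protein gene, was far more abundant than *mbpa*, at 18.6, 19.6 and 17.6 RPKM in mutants, 18.7, 19.1 and 17.4 RPKM in morphants and 11.9, 17.5 and 16.4 RPKM in WT. It was not called, with a log2 fold change of 0.30 in mutants and 0.29 in morphants. Thus the lower level of *mbpa* was not shared by its paralogue. *glulb* had 94.9 to 99.9 RPKM in mutants, 130.2 to 139 RPKM in morphants and 51.9 to 68.4 RPKM in WT, with a log2 fold change of 0.66 in mutants and a call in morphants at 1.13. The third gene of this family, *glulc*, had log2 fold changes of -1.52 in mutants and -1.19 in morphants and was not called. *slc1a3b* (0.55 and 0.06) and *fabp7b* (1.03 and 0.90) were not called in mutants or morphants either. *slc1a3b* had 17.8 to 21.1 RPKM in mutants, 11.6 to 16.4 RPKM in morphants and 9.47 to 17.7 RPKM in WT. The lower level of *slc1a3a* in mutants was thus not shared by this more abundant paralogue.

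Among 34 other tested genes of myelin and myelinating glia, 7 rose and 0 fell in mutants against WT, or 20.6% higher against 10.4% of all genes, with a median log2 fold change of 0.51 (1 gene was lower at an unadjusted p under 0.05, and limma-voom also called 0 lower). In morphants 6 rose and 4 fell, with a median of 0.38, or 17.6% higher and 11.8% lower against 7.45% and 14.9% of all genes. The 7 that rose in mutants averaged 4.06 to 16.2 RPKM, a range where higher calls were common. Of all genes of 4 to 8 RPKM, 17.5% were called higher in mutants and 12.1% in morphants. Of those of 8 to 16 RPKM, 17.9% and 15.4% were. Some of the 34 genes lie lower, such as *cntnap2a* at a mean of 1.45 RPKM and *cntn1b* at 2.36 RPKM. In mutants 3.26% of genes of 1 to 2 RPKM and 9.96% of those of 2 to 4 RPKM were called higher. The share of the whole list was not set against genes matched for level. Among those higher in mutants were *prx* (periaxin of Schwann cells, log2 fold change 2.13), *ugt8* (synthesis of the myelin lipid galactosylceramide, 1.51), *sirt2* (a deacetylase, 1.59), *cd82b* (a tetraspanin, 1.54), and the adhesion protein genes *mpzl2b* (1.88) and *mpzl1l* (1.25). *mal* (ENSDARG00000043442), whose product sits in lipid rafts, was higher in mutants (1.18) and in morphants (1.59), and *mpzl2b* (1.78), *mpzl1l* (1.48), *sirt2* (1.34) and *cd82b* (1.29) were called in morphants as well. The table has other genes named *mal*, which were not called, among them ENSDARG00000030094 at a log2 fold change of -0.33 in mutants and -0.06 in morphants. Several of these genes are also expressed outside glia. The 4 that fell in morphants were the axo-glial adhesion genes *cntn1b* (-1.46) and *cntnap2a* (-1.46) and, named after their values were seen, the oligodendrocyte genes *olig1* (-1.18) and *cldnk* (-1.03). *olig1* had 2.06, 1.67 and 2.21 RPKM in mutants, 1.56, 0.852 and 1.13 RPKM in morphants and 3.02, 2.26 and 3.00 RPKM in WT, and so lay below WT in all 6 libraries. Of all genes of 1 to 2 RPKM, 25.9% were called lower in morphants, and of those of 2 to 4 RPKM, 8.89%. Other genes of the list, also named after their values were seen, lay above every WT library in mutants. *nkx2.2a* had 8.10 to 9.29 RPKM there against 4.29 to 5.21 RPKM in WT, and *gpr17* 3.30 to 4.38 RPKM against 0 to 1.91 RPKM. Neither was called, and their morphant libraries overlapped WT. Set directly against morphants, mutants had 3 of the 34 genes higher, *cntnap2a* (1.34), *cntn2* (1.22) and *prx* (1.19), and 0 lower (4 at an unadjusted p under 0.05, and 0 by limma-voom). That is 8.82% higher, against 3.48% of all genes higher and 2.4% lower.

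In the list of Schwann cell, neural crest and glial signalling genes, 5 of 33 (15.2%) rose and 0 fell in mutants, against 10.4% and 12.1% of all genes. In mutants 5 were lower at an unadjusted p under 0.05 and 3 were called lower by limma-voom. In morphants 2 rose and 2 fell (6.06% each), shares near or below those of all genes. *pou3f1*, which promotes the onset of myelination in Schwann cells, rose in both (log2 fold change 1.52 in mutants and 1.00 in morphants), as did *pdgfra*, the receptor gene of oligodendrocyte precursors and neural crest derivatives (1.55 and 1.43 for ENSDARG00000090703). Another gene named *pdgfra* (ENSDARG00000070494) was at 0.80 in mutants and 0.85 in morphants, under 2-fold. *sox8a*, a relative of *sox10*, fell in morphants (-1.22). In mutants it was not called, at 1.35, 1.12 and 2.05 RPKM against 3.65, 3.31 and 2.28 RPKM in WT. Named after their values were seen, *egr2b* and *egr2a* of this list were not called in mutants but lay below every WT library there. *egr2b* had 0.938, 0.893 and 1.04 RPKM in mutants and 3.99, 1.14 and 2.51 RPKM in WT. *egr2a* had 0.529, 0.566 and 0.485 RPKM in mutants and 4.09, 2.14 and 0.714 RPKM in WT. Morphant libraries overlapped WT for both. In mutants 20 of the 33 genes of this list did not overlap WT, in either direction, with a background of 52.6%. Such a gap was thus common.

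Of 45 radial glia and astroglia genes, 11 rose and 3 fell in mutants (24.4% and 6.67%, median 0.55), against 10.4% and 12.1% of all genes. In morphants 6 rose and 4 fell (13.3% and 8.89%, median 0.33), against 7.45% and 14.9% of all genes. *slc1a2a*, a second glutamate transporter gene, had 0.108, 0.299 and 0.0921 RPKM in mutants, 0 in all 3 morphant libraries and 2.13, 4.11 and 2.47 RPKM in WT, and was called lower in both. It reached 0.5 RPKM in WT libraries only, so it passed the filter through WT alone. Its far more abundant paralogue *slc1a2b* had 56.7 to 59.1 RPKM in mutants, 51.1 to 60.0 RPKM in morphants and 87.1 to 104.5 RPKM in WT. The amino acid transporter gene *slc7a10b* also fell (log2 fold change -2.06, adjusted p = 0.0115, in mutants and -1.46, adjusted p = 0.0489, in morphants). Its WT libraries were uneven, at 5.72, 1.75 and 2.14 RPKM. Of genes of 1 to 2 RPKM, where *slc7a10b* and *slc1a2a* belong, 13.6% were called lower in mutants and 25.9% in morphants. The Notch target *her4.1* was called higher in both groups and was at 0 in all 3 WT libraries. It had 5.40 to 6.87 RPKM in mutants and 2.96 to 7.19 RPKM in morphants, and has near-identical neighbours, so its reads may be split among copies. The rows named *her4.2* (ENSDARG00000056729 and ENSDARG00000094426) were also called higher in both groups. This family is thus counted repeatedly among the genes that rose, 11 in mutants and 6 in morphants. *sparcl1* (1.88) rose in mutants and *metrn*, which encodes a secreted glial factor, rose in both (1.61 in mutants and 1.51 in morphants).

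**Figure D4:**
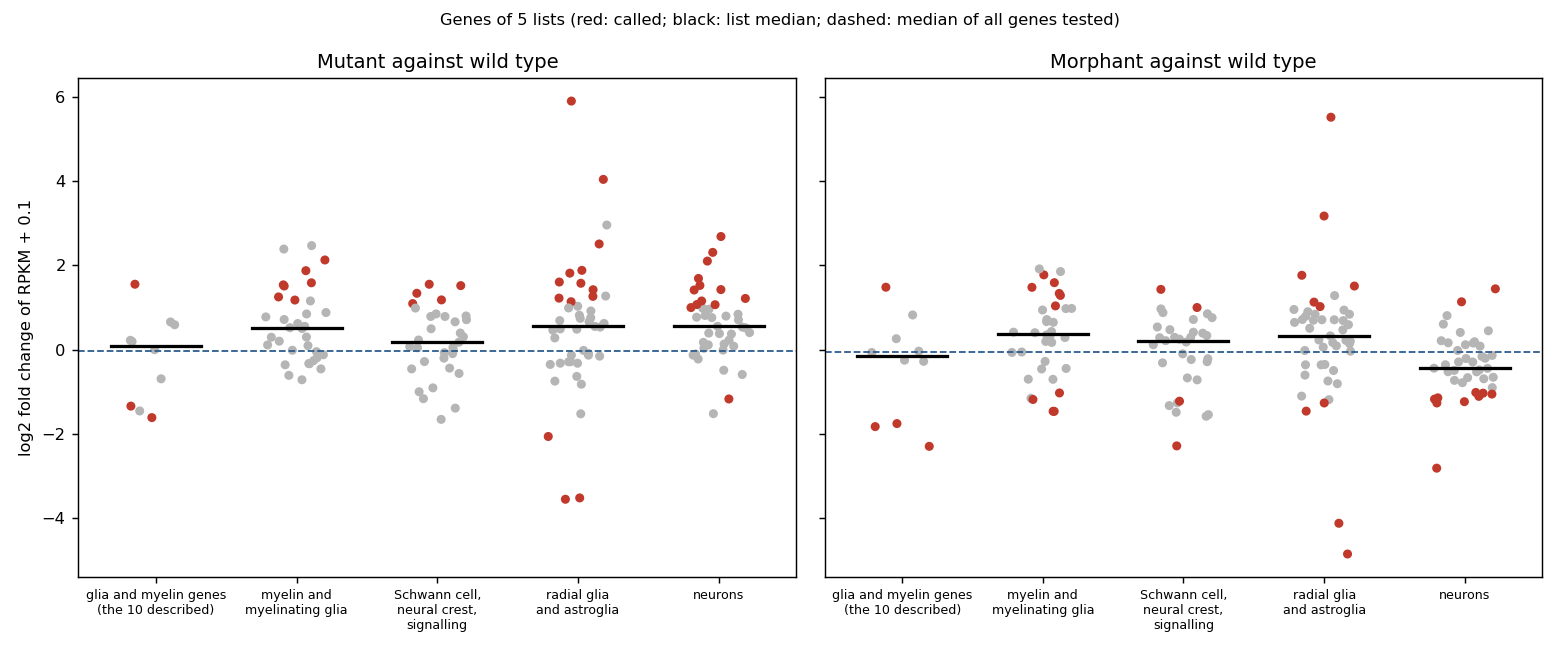
Log2 fold change of RPKM + 0.1 in mutants (left) and morphants (right) against WT for the 10 genes and for 4 lists of related genes. Points are genes, red where called, black bars are list medians and the dashed line is the median of all genes tested; the neuron genes have a median of 0.55 in mutants and -0.44 in morphants.

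Markers of other cells were counted in the same way, to be read against the 10.4% of all genes called higher and 12.1% called lower in mutants, and 7.45% and 14.9% in morphants. Of 41 neuron genes, 12 rose and 1 fell in mutants (29.3% and 2.44%), and 2 rose and 9 fell in morphants (4.88% and 21.95%). Their summed level was 1307 to 1364 RPKM in mutants, 707 to 745 RPKM in morphants and 839 to 965 RPKM in WT, the same order of groups as *gfap*. Of the 42 neuron genes in the table, 41 were above 0 in every library, and *gap43* was listed at 0 in all of them, as was *c1qc* among the microglia and macrophage genes. Of 30 tested rows of microglia and macrophage genes, 0 rose and 4 (13.3%) fell in mutants, with 0 higher at an unadjusted p under 0.05 and 0 called higher by limma-voom, and 2 rose and 8 fell in morphants (6.67% and 26.7%). Several rows of this list were low, such as *cd74b* and *ptprc*, which were under 1 RPKM in every mutant and morphant library. Of all genes under 1 RPKM, 43.3% were called lower in morphants and 29.8% in mutants. Of those of 1 to 2 RPKM, 25.9% and 13.6% were. The share of this list was not set against genes matched for level, so 26.7% is not read as a loss particular to these cells. The 37 rows of this list carry 21 symbols, many of them named *mfap4*, so 1 family is counted repeatedly. In morphants 1 row named *mfap4* was called lower (-2.22, ENSDARG00000038681) and another higher (1.69, ENSDARG00000090557). Of 20 pigment cell genes, 3 rose and 3 fell in mutants (15% each), and 2 rose and 1 fell in morphants (10% and 5%), which is near the shares of all genes or below them. Of 26 genes of dividing cells, 5 rose and 1 fell in mutants (19.2% and 3.85%), and 6 rose in morphants (23.1%). Of 17 genes of other embryo tissues, 7 (41.2%) fell and 1 rose in mutants, and their sum was 22002 to 23034 RPKM in mutants, 36006 to 49678 RPKM in morphants and 61344 to 79069 RPKM in WT. The part of these differences in the results for the glial genes was not tested. When levels were scaled to the summed neuron genes, *plp1a* was at a log2 fold change of 0.98 in mutants, under 2-fold (adjusted p = 0.00085). *mbpa* stayed lower at -1.89 in mutants, *gfap* was at 0.01 (adjusted p = 0.938) and *glula* at 0.08 (adjusted p = 0.604). That scaling moved the median of all genes to -0.58 in mutants.

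Scaling by read totals alone moved the median log2 fold change of all genes to 0.68 in mutants and 0.22 in morphants. On that scale *mbpa* was at -0.64 in mutants, no longer called (adjusted p = 0.129), and *plp1a* at 2.27. Relative to the median of all genes, *mbpa* in mutants was at -1.32 as deposited and at -1.32 with read totals, and *plp1a* at 1.58 and 1.59. Read totals scale each library by 1 factor and shift all genes nearly alike. This agreement therefore follows from the scaling and is no further test. *mbpa* was below WT and *plp1a* above it, in mutants and in morphants, under all 23 alternatives tried. Several of these change only the filter, the estimate of spread or the group not compared, and could not move the fold change.

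**Figure D5:**
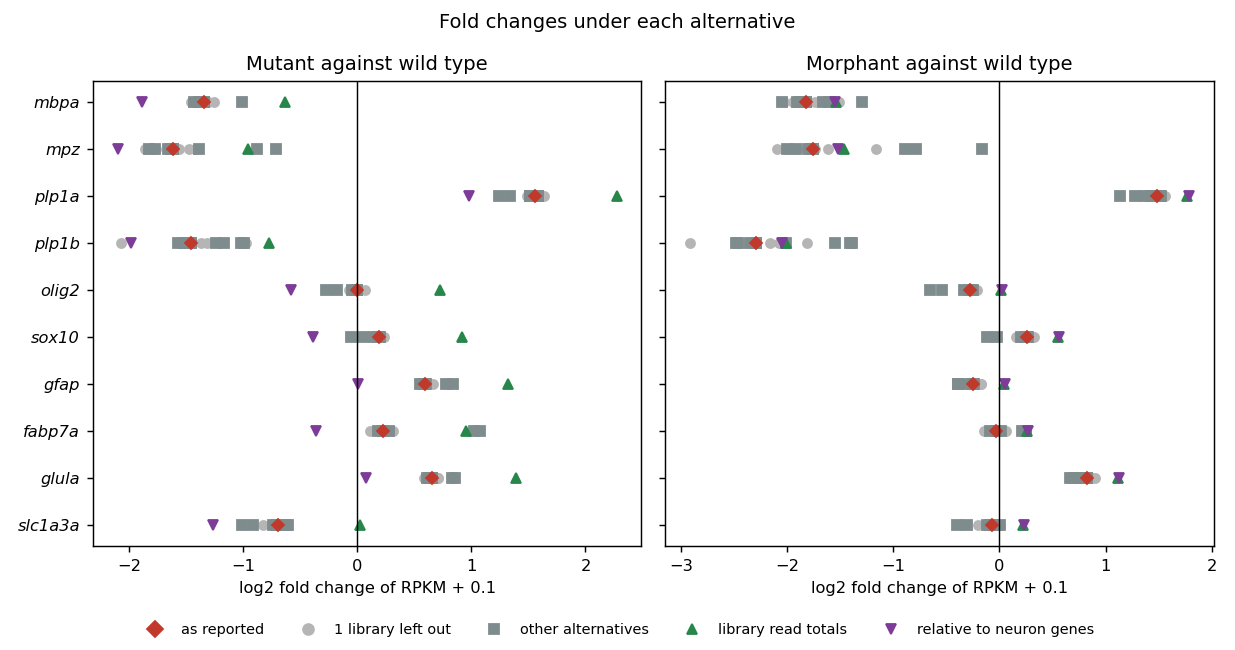
Log2 fold change of each of the 10 genes in mutants (left) and morphants (right) against WT under each alternative way of processing. Diamonds are the reported values, grey circles the fits without 1 library, squares the other alternatives and triangles the scalings by read totals and by neuron genes; *plp1a* lies right of 0, and *mbpa*, *mpz* and *plp1b* left of 0, throughout.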

How the data were processed

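Polyadenylated RNA was made into directional libraries, and the authors aligned 50-bp reads to Zv9 with STAR and counted them per gene with HTSeq, per the submitters' processing notes and the study's methods; versions, annotation and counting options are not given in the sources used here. The deposited table holds RPKM values of 33737 genes in 9 libraries. The authors had scaled RPKM to adjusted library sizes; undoing the length and library scaling of the deposited values gave whole reads in 100% of them (tolerance 0.01 reads). Symbols are those of the table.

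Values were taken as log2(RPKM + 0.1) for the 21982 genes that reached 0.5 RPKM in 3 or more libraries. The 3 group means were fitted over all 9 libraries with limma 3.58.1 (mean-variance trend) in R 4.3.3, and p-values were adjusted by the Benjamini-Hochberg method over all genes tested. The fit was tested on simulated data. Values were also set against limma-voom on the recovered reads and 22 other alternatives. Groups and replicate numbers came from the sample labels; the short label of WT replicate 3 repeats the number 2, and its title gives 3. The study's text calls the controls siblings, while the labels say WT TuAB. The labels do not say that pools came from separate clutches, so p-values measure only the spread between these pools. Read numbers limit precision by counting error only.

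The 10 genes and the lists were chosen with earlier results of these data known. Named were the 10 genes, *cep290* and the second copies of the 10. Per list and comparison, up to 6 called genes averaging 1 RPKM or more were selected by size of change. Not all of those selected are named. Genes outside this rule are also named, among them *olig1*, *cldnk*, *enpp6*, *nkx2.2a*, *gpr17*, *egr2a*, *egr2b* and *slc1a2b*. Figures were drawn with Python 3.11.15 and matplotlib 3.10.9.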

Additional observations from a re-analysis of the deposited data

Results flagged for a closer look

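For 2 of the 10 genes the change in mutants differed from that in morphants by the direct contrast of these groups in limma. *gfap* differed by a log2 value of 0.84 (adjusted p = 0.00108), above WT in mutants and below it in morphants. *slc1a3a* differed by -0.63 (adjusted p = 0.0298), lower than WT in the 3 mutant libraries and overlapping WT in morphants.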

How the results depend on the processing

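*plp1a* stayed above WT and *mbpa* below it in mutants and morphants under all 23 alternatives, and *mpz* and *plp1b* stayed below WT under the 22 that kept them. Changing only the filter, the estimate of spread or the group not compared leaves a fold change as it was. Such alternatives could not turn its direction. The lower call of *mpz* was lost under 17 of 22 alternatives in mutants and 16 of 22 in morphants, and *plp1b* in mutants was called under 5 of 22. The log2 fold change of *mpz* ranged from -2.10 to -0.71 in mutants and from -2.09 to -0.16 in morphants, and that of *plp1b* from -2.07 to -0.77 and from -2.91 to -1.39. The lower call of *plp1b* in morphants was lost with quantile and cyclic loess normalization. WT libraries held 12 to 93 reads on each of these 4 genes, which limits their precision.

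Genes called lower in mutants against WT numbered 1 with a pseudocount of 0.01, no filter, a required average of 2 RPKM, quantile normalization, group weights or WT replicates 2 and 3 as 1 sample, 0 with read totals, 3 with limma-voom, 4 relative to neuron genes, and 1 to 2 without 1 library. Those called higher numbered 2 with quantile or cyclic loess normalization (*plp1a* and *fabp7a*), 3 with read totals (*plp1a*, *gfap* at 1.32 and *glula* at 1.39) and 0 relative to neuron genes. *slc1a3a* was called lower with loess (-1.01) and relative to neuron genes (-1.26). In morphants against WT, 1 was lower with the 2 RPKM average, quantile or loess, and 2 (*plp1a* and *glula*) were higher with read totals or relative to neuron genes. Between mutants and morphants, 1 (*gfap*) was higher with quantile, loess or read totals, and 2 (*glula* and *slc1a3a*) were lower relative to neuron genes. The causes were not tested beyond the construction of each alternative.

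Direction turned only for uncalled values. In mutants against WT, *olig2* was at -0.044 with median-of-ratios scaling, -0.17 with quantile, -0.27 with loess, -0.58 relative to neuron genes, -0.0055 with voom, -0.0037 with WT replicates 2 and 3 as 1, and -0.068 to 0.071 without 1 library. *sox10* was at -0.050 with loess and -0.39 relative to neuron genes, *fabp7a* at -0.36 relative to neuron genes and *slc1a3a* at 0.029 with read totals. In morphants against WT, *fabp7a* was at 0.21 (quantile), 0.25 (loess), 0.26 (read totals), 0.27 (neuron genes) and 0.018 (WT 2 and 3 as 1), *sox10* at -0.022 (quantile) and -0.12 (loess), *gfap* at 0.041 (read totals) and 0.054 (neuron genes), *slc1a3a* at 0.22 (read totals), 0.23 (neuron genes) and 0.0024 (WT 2 and 3 as 1), and *olig2* at 0.012 (read totals) and 0.024 (neuron genes). Without 1 library *fabp7a* ran from -0.14 to 0.057 and *slc1a3a* from -0.20 to 0.0056. Between mutants and morphants, *mpz* was at -0.59 (quantile), -0.55 (loess) and -0.57 (neuron genes), *glula* at 0.17 (quantile), 0.16 (loess) and 0.27 (read totals), and *sox10* at 0.076 (quantile), 0.071 (loess) and 0.37 (read totals). Relative to neuron genes *fabp7a* was at -0.63, *gfap* at -0.045, *mbpa* at -0.34, *olig2* at -0.60 and *plp1a* at -0.81 there. Without 1 library *mpz* ran from -0.45 to 0.48 and *sox10* from -0.14 to 0.035.

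Same-numbered libraries did not deviate together (r = -0.041 to 0.006 across genes), so no pairing by number was seen. Counting error enters these deviations, so a pairing could still be hidden. With a replicate block the counts stayed at 1 higher and 2 lower in mutants and 1 higher and 3 lower in morphants, with *plp1b* (adjusted p = 0.0485) in place of *mpz* (0.0526) in mutants.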
